A study of Mus musculus with 2 samples.

Results

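The 10 genes described here make, load or switch on MHC class II, the cell surface molecule that shows peptides to CD4 T cells. They were taken by symbol from the 31053 genes of both count tables: the chains that bind peptide (H2-Aa, H2-Ab1 and H2-Eb1), the invariant chain (Cd74), the peptide editor H2-DM (H2-DMa, H2-DMb1 and H2-DMb2), its inhibitor H2-O (H2-Oa and H2-Ob) and the transactivator Ciita. All 10 had UMIs in both libraries. The cells came from the colon of bone marrow chimeras, in which CD45.1 recipient mice had received CD45.2 marrow. Donors of 1 group lacked the IL-10 receptor (IL-10R KO, here KO), and those of the other also lacked CerS2, a ceramide synthase (IL-10R/CerS2 DKO, here DKO). Both groups thus lacked the IL-10 receptor in every donor-derived blood lineage, through a germline knockout of Il10rb, in mice crossed to C57BL/6. Donor cells had been sorted by CD11b, CD11c and CD64, and there was 1 library per genotype, with the number of pooled animals and their age not given in the sources used here. Genotype therefore cannot be told apart from mouse, sort or library, no test was run, and each interval below is a 95% interval for counting error only.

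MHC class II pairs an alpha with a beta chain in the endoplasmic reticulum, where the invariant chain fills the groove and directs the complex to endosomes. Cathepsins cut the invariant chain down to a short peptide there, H2-DM exchanges this peptide for others, and H2-O holds H2-DM back. CIITA binds no DNA itself and works through RFX and NF-Y proteins that sit on paired elements, the X box and the Y box, upstream of class II genes. In the colon, monocytes that arrive from blood gain class II as they become macrophages.

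Promoter stretches are shown because members with unlike levels across the cell classes below, such as H2-Aa and H2-Oa, hold the same pair of motifs. Windows of 300 bases around the start site (RefSeq, GRCm38.p6) were at hand for 7 of the 10 members and were searched on both strands for GNAAC, the core of the X box, and ATTGG, the core of the Y box, which share no bases with each other. GNAAC occurred in 84.8% and ATTGG in 37.4% of all 32851 promoter windows, whereas GNAAC followed by ATTGG on 1 strand, with starts 28 to 40 bases apart, occurred in 2.12%. The pair was found in 5 of the 7 members, with starts 33 bases apart in H2-Aa, 32 in H2-Eb1, 33 in H2-DMb1, 33 in H2-Oa and 30 in H2-Ob. These stretches lie on the minus strand at chr17:34287855-34287916 (H2-Aa) and on the plus strand at chr17:34305764-34305824 (H2-Eb1), chr17:34153085-34153146 (H2-DMb1), chr17:34092291-34092352 (H2-Oa) and chr17:34238806-34238864 (H2-Ob), all before the RefSeq start site, with both motifs in capitals. Those of H2-DMb1 and H2-Oa reach into the longer gene bodies that GENCODE gives, as the H2-DMb2 stretch below does. H2-DMb2, the near copy of H2-DMb1, had no such pair. Its stretch at chr17:34145114-34145175 (plus strand), aligned without gaps on ATTGG, matched that of H2-DMb1 at 53 of 62 bases, with ATTGG in capitals. The windows of H2-DMa held no such pair either. A match to these letters is a description of sequence and was not tested as a binding site.
H2-Aa: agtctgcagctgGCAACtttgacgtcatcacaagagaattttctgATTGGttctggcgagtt
H2-Eb1: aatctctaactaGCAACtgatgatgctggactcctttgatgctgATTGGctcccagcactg
H2-DMb1: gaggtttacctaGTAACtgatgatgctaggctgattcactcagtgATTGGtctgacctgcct
H2-DMb2: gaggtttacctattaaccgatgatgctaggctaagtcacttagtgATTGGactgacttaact
H2-Oa: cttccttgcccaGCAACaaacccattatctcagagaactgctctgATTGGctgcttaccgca
H2-Ob: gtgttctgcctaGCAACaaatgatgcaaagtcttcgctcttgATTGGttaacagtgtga

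The KO library held 2584 barcodes and 12549471 UMIs (molecules counted once each), of which 2443 cells passed the study's filter on detected genes and mitochondrial share, and the DKO library held 742 barcodes and 3414944 UMIs with 730 cells kept. The Cers2 gene was counted 554 times in KO against 3 in DKO. The libraries shared 1 barcode. Cells were gated on 10 markers per class, none of them a member, such as Flt3 and Zbtb46 for dendritic cells, C1qa and Mertk for macrophages, Ly6c2 and Ccr2 for monocytes, Cd79a and Ms4a1 for B cells, Cd3e and Trac for T cells, and Cxcr2 and S100a8 for neutrophils. A cell needed UMIs of at least 3 markers of its class and more than of any other, and monocytes, macrophages and intermediate cells (at least 3 markers of both) also needed 3 of 10 shared monocyte/macrophage markers. C1qa, a complement gene of tissue macrophages, stood at 2524 and 2749 CPM in the macrophages of KO and DKO and at 74.7 and 138 CPM in their dendritic cells. The labels call both samples colon macrophages and describe a myeloid sort, but lymphocytes were present and macrophages were 18.4% of kept cells in KO (450 cells) and 16.3% in DKO (119 cells). The gates also held 383 and 64 intermediate cells, 513 and 105 monocytes, 56 and 34 dendritic cells, 215 and 164 B cells, 296 and 110 T cells, and 165 and 43 neutrophils, in KO and DKO respectively. Some gates rested on few markers: 24 of 56 KO dendritic cells and 15 of 34 DKO dendritic cells had only the minimum of 3, as did 231 of 383 KO and 45 of 64 DKO intermediate cells. UMIs of a class were summed and given as counts per 1000000 UMIs of that class (CPM). UMIs tag 3′ ends and do not scale with transcript length, so levels of different genes are molecules caught, not molecules per length.

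Class II took the largest share of UMIs in macrophages, followed by dendritic cells, and the order of the classes was the same in both libraries. A share is not an amount per cell. The median dendritic cell held 9245.5 (KO) and 11230.5 UMIs (DKO), against 6075.5 and 5267 in macrophages. The 10 members together reached 46471 CPM (interval 46218–46724) in KO macrophages and 49396 CPM (interval 48879–49918) in DKO macrophages. Dendritic cells of KO had 37235 CPM (interval 36738–37737), and those of DKO 45585 CPM (interval 44924–46254). Intermediate cells followed with 34276 CPM (KO) and 41758 CPM (DKO), monocytes with 20243 and 24099 CPM, and B cells with 18906 and 20442 CPM. Counting intervals of neighbours in this order did not overlap in either library, and neutrophils and T cells, which should lack class II, came last. A sum over cells cannot tell fewer positive cells from less RNA per cell, so values of single cells follow the levels.

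**Figure D1:**
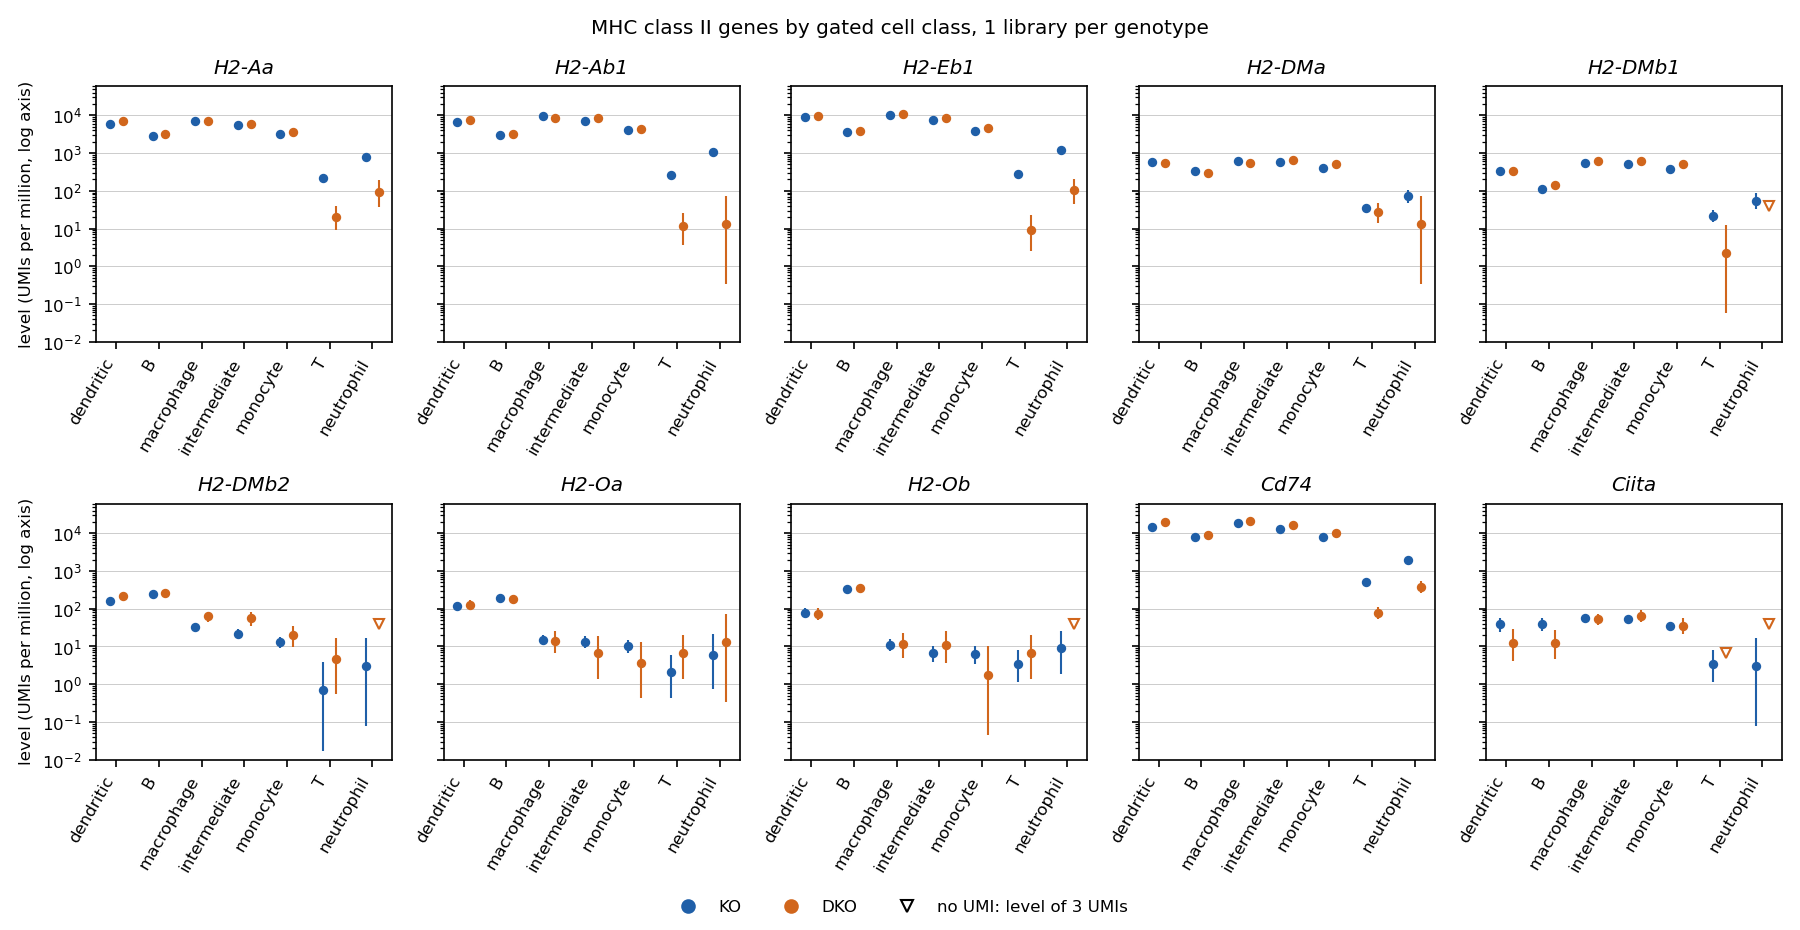
Level of each member (CPM, log axis) in each gated class of the KO and the DKO library; points are sums over the cells of 1 library, bars are 95% Poisson intervals, and open triangles mark the level of 3 UMIs where none was seen. The peptide-binding chains and Cd74 sit high in all 5 presenting classes. H2-DMa and H2-DMb1 lie lower and, among these classes, are lowest in B cells. H2-DMb2, H2-Oa and H2-Ob are instead higher in dendritic and B cells than in the other classes.

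The peptide-binding chains made up the bulk of the sum with Cd74. H2-Eb1 (beta chain of I-E; ENSMUSG00000060586; chr17:34305867-34316674, plus strand, gene body in GRCm38) had, in KO, 10499 CPM in macrophages, 8805 CPM in dendritic cells, 7562 CPM in intermediate cells, 3835 CPM in monocytes and 3592 CPM in B cells. The DKO library had 10914 CPM in macrophages, 9779 CPM in dendritic cells, 8673 CPM in intermediate cells, 4743 CPM in monocytes and 3799 CPM in B cells. C57BL/6 mice are known to make no I-E alpha chain, the partner of this beta chain, and H2-Eb1 was nevertheless the most abundant of the 3 chains in macrophages and dendritic cells of both libraries. H2-Ab1 (beta chain of I-A; ENSMUSG00000073421; chr17:34257689-34269419, plus strand) had 9382 CPM in macrophages, 6780.3 CPM in dendritic cells, 7151 CPM in intermediate cells, 4074 CPM in monocytes and 3063 CPM in B cells in KO. Its DKO levels were 8606 CPM in macrophages, 7613 CPM in dendritic cells, 8618 CPM in intermediate cells, 4302 CPM in monocytes and 3271 CPM in B cells, and there intermediate cells and macrophages did not differ beyond their counting intervals. H2-Aa (alpha chain of I-A; ENSMUSG00000036594; chr17:34282744-34287823, minus strand) had 7035 CPM in macrophages, 5777 CPM in dendritic cells, 5576 CPM in intermediate cells, 3275 CPM in monocytes and 2911 CPM in B cells in KO. Its levels in DKO were 7134 CPM in macrophages, 6898 CPM in dendritic cells, 6025 CPM in intermediate cells, 3718 CPM in monocytes and 3188 CPM in B cells. Of the 5 presenting classes, macrophages were highest for each chain in KO and B cells lowest in both libraries, while dendritic cells overlapped intermediate cells in KO and macrophages in DKO for H2-Aa.

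Cd74 (ENSMUSG00000024610, on chromosome 18), the invariant chain, was the most abundant member in every presenting class. It had 18301 CPM in macrophages, 14562 CPM in dendritic cells, 12806 CPM in intermediate cells, 8198 CPM in monocytes and 8074 CPM in B cells in KO. In DKO it had 21418 CPM in macrophages, 19985 CPM in dendritic cells, 17062 CPM in intermediate cells, 10259 CPM in monocytes and 8949 CPM in B cells. Its share of all member UMIs stayed between 37.4% (KO intermediate cells) and 43.8% (DKO dendritic cells) across the 5 presenting classes. H2-Eb1 made up 23.6% of member UMIs in KO dendritic cells and 18.6% in DKO B cells, the ends of its range over these classes. In macrophages the share of Cd74 was 39.4% in KO and 43.4% in DKO, and that of H2-Ab1 was 20.2% and 17.4%.

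The peptide editor and its inhibitor split the presenting cells differently from the chains they serve. H2-DMa (alpha chain of H2-DM; ENSMUSG00000037649; chr17:34119541-34139101, plus strand) had 605 CPM in macrophages, 575 CPM in dendritic cells, 583 CPM in intermediate cells, 408 CPM in monocytes and 339 CPM in B cells in KO. DKO levels of H2-DMa were 563 CPM in macrophages, 533 CPM in dendritic cells, 637 CPM in intermediate cells, 512 CPM in monocytes and 292 CPM in B cells, so that macrophages, intermediate cells and dendritic cells overlapped in their intervals in both libraries and B cells were the lowest of the 5, with monocytes overlapping them in KO. H2-DMb1 (a beta chain of H2-DM; ENSMUSG00000079547; chr17:34153072-34160230, plus strand) had 532 CPM in macrophages, 339 CPM in dendritic cells, 503 CPM in intermediate cells, 388 CPM in monocytes and 110.5 CPM in B cells in KO. It had 619.8 CPM in macrophages, 345 CPM in dendritic cells, 604 CPM in intermediate cells, 504 CPM in monocytes and 142 CPM in B cells in DKO. Dendritic cells thus lay below macrophages for this chain in both libraries, and B cells lowest.

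H2-DMb2 (the other beta chain gene; ENSMUSG00000037548; chr17:34143307-34151555, plus strand) ran the other way, with B cells and dendritic cells on top, overlapping in DKO. It reached 241 CPM in KO B cells (168 UMIs) and 257 CPM in DKO B cells (125 UMIs). Dendritic cells followed at 159.9 CPM for KO and 219 CPM for DKO, against 32.5 and 62.4 CPM in macrophages and 13.1 and 19.7 CPM in monocytes. Set against H2-DMb1, the share of H2-DMb2 in the UMIs of both was 68.6% (62.4 to 74.3%, 168 of 245 UMIs) in KO B cells and 64.4% (57.3 to 71.2%, 125 of 194 UMIs) in DKO B cells. Dendritic cells had 32.1% (26.7 to 37.8%, 92 of 287 UMIs) in KO and 38.8% (32.4 to 45.6%, 87 of 224 UMIs) in DKO. Macrophages had 5.76% (4.66 to 7.02%, 91 of 1581 UMIs) in KO and 9.15% (6.73 to 12.1%, 44 of 481 UMIs) in DKO. Without the 1 DKO macrophage with most H2-DMb2 UMIs, left out after the data were seen, the DKO share was 5.54% (3.62 to 8.07%, 25 of 451 UMIs). The share thus differed between these 3 classes by more than the counting intervals, in the same direction in both libraries. The genes are near copies, and Cell Ranger leaves out reads that map equally well to both, so each level is uncertain.

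H2-O followed H2-DMb2. H2-Oa (alpha chain; ENSMUSG00000024334; chr17:34092340-34095234, plus strand) had 197 (KO) and 181 CPM (DKO) in B cells, 119.9 and 128 CPM in dendritic cells, and 15.0 and 14.2 CPM in macrophages. H2-Ob (beta chain; ENSMUSG00000041538; chr17:34238903-34254414, plus strand) had 340.0 and 352 CPM in B cells, 78.2 and 73.0 CPM in dendritic cells, and 11.1 and 11.3 CPM in macrophages. Monocytes had 27 and 2 UMIs of H2-Oa and 16 and 1 of H2-Ob in KO and DKO, and their levels, like those of macrophages and intermediate cells, overlapped those of neutrophils, which had 2 and 1 UMIs of H2-Oa and 3 and 0 of H2-Ob. H2-O made up 43.7% (40.4 to 47.1%, 374 of 855 UMIs) of the UMIs of H2-O plus H2-DM in KO B cells and 43.5% (39.5 to 47.6%, 259 of 595 UMIs) in DKO B cells. The share was 15.6% and 15.5% in dendritic cells, 2.18% and 2.01% in macrophages, and 2.0% and 0.517% in monocytes. The share of the inhibitor was thus highest in B cells, lower in dendritic cells and lowest in the monocyte and macrophage classes, in both libraries by more than the counting intervals.

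**Figure D2:**
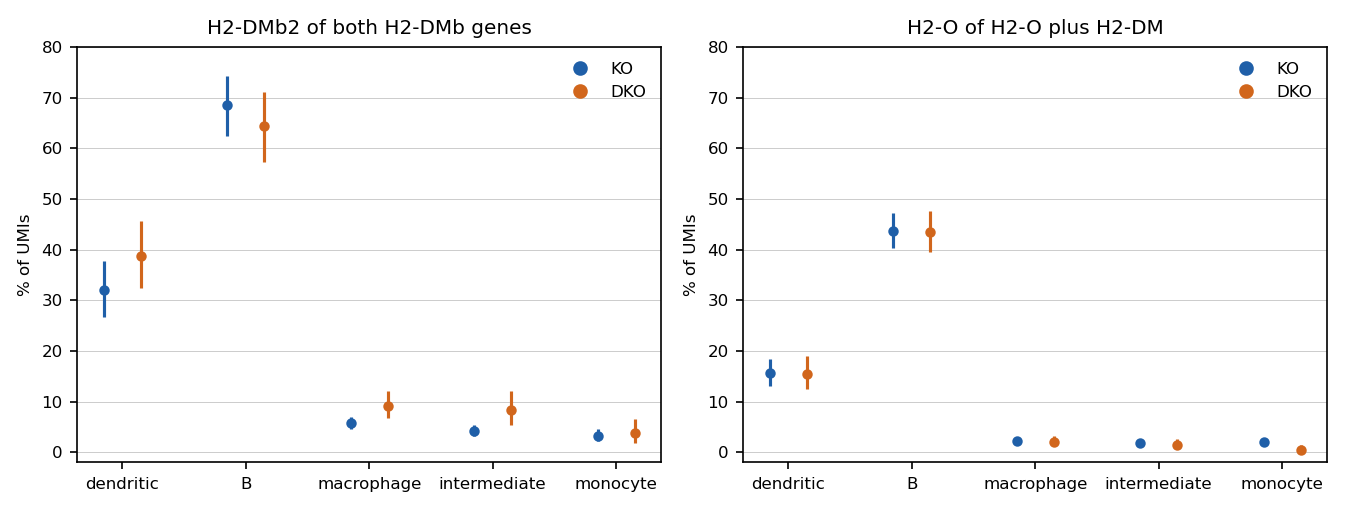
Share of H2-DMb2 in the UMIs of both H2-DMb genes (left) and of H2-Oa and H2-Ob in the UMIs of H2-O plus H2-DM (right), in % with exact 95% binomial intervals, for the 5 presenting classes of each library. B cells are highest, dendritic cells follow, and macrophages, intermediate cells and monocytes lie low on both measures.

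Against macrophages, 3 of the 10 members were at least 2-fold higher in dendritic cells (H2-Oa, H2-Ob and H2-DMb2), in KO and in DKO alike, where 8.26% and 8.61% of all genes with at least 10 UMIs were. The median over the members was -0.27 in KO and -0.088 in DKO on the log2 scale, beside -0.23 and -0.36 over all genes. H2-Oa was 7.96-fold higher in KO, a log2 difference of 2.99 (2.43 to 3.59), and 8.7-fold higher in DKO. In B cells the same 3 members were at least 2-fold higher than in macrophages in both libraries (background 18.9% and 19.4%), with H2-Ob 30.3-fold higher in KO and 29.2-fold in DKO. The macrophage levels of H2-Oa and H2-Ob under these folds overlapped the neutrophil background. There 5 members were at least 2-fold lower in KO and 6 in DKO (background 24.4% and 24.5%), with H2-DMb1 at log2 differences of -2.26 (-2.62 to -1.94) and -2.12 (-2.52 to -1.76). The medians over the members in B cells were -1.01 and -1.21, beside 0.035 and 0.050 over all genes. No member was at least 2-fold lower in dendritic cells of KO (background 23%), and in DKO only Ciita was (5 UMIs, background 28.5%).

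Ciita (ENSMUSG00000022504; chr16:10480059-10528418, plus strand), the transactivator, was scarce everywhere. In KO it had 58.2 CPM in macrophages, 38.2 CPM in dendritic cells, 53.8 CPM in intermediate cells, 35.8 CPM in monocytes and 38.7 CPM in B cells. In DKO it had 53.9 CPM in macrophages, 12.6 CPM in dendritic cells, 66.2 CPM in intermediate cells, 35.9 CPM in monocytes and 12.3 CPM in B cells, from 5 UMIs in dendritic cells and 6 in B cells. Neighbouring presenting classes in the order of levels overlapped in their intervals in both libraries, while macrophages lay apart from monocytes in KO and from dendritic and B cells in DKO. Thinned to 1000 UMIs per cell, 6.98% of KO macrophages and 11.0% of DKO macrophages had a Ciita UMI, against 0 of the 295 KO and 0 of the 110 DKO T cells, which allows shares of cells with a UMI at this depth of up to 1.02% and 2.73%. Unthinned, the shares were 25.6% and 22.7% in macrophages and 1.69% in KO T cells, whose median cell had 3914 UMIs against 6076 in KO macrophages. In the annotation Ciita overlaps Dexi, H2-Eb1 overlaps Gm20513, H2-DMa overlaps Brd2 and H2-Oa overlaps BC051537, each on the other strand, and the sources used here do not state how strand was used in counting, so reads of these pairs are uncertain.

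Within a class, single cells spread widely. The 10 members took a median of 4.33% of a cell's UMIs in KO macrophages and 4.52% in DKO macrophages, with the 10th to 90th percentiles at 2.58 to 7.1% and 2.16 to 7.72%. KO monocytes had a median of 1.83% and percentiles from 0.0632 to 4.03%, and DKO monocytes 2.01% and 0.0559 to 4.62%. The monocyte class thus ran from cells with almost no class II RNA to cells near the macrophage median, which its 90th percentile passed in DKO but not in KO. B cells were tighter, at 1.31 to 2.88% in KO and 1.45 to 3.06% in DKO around medians of 2.1 and 2.14%. Dendritic cells had medians of 3.62% in KO and 4.49% in DKO.

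**Figure D3:**
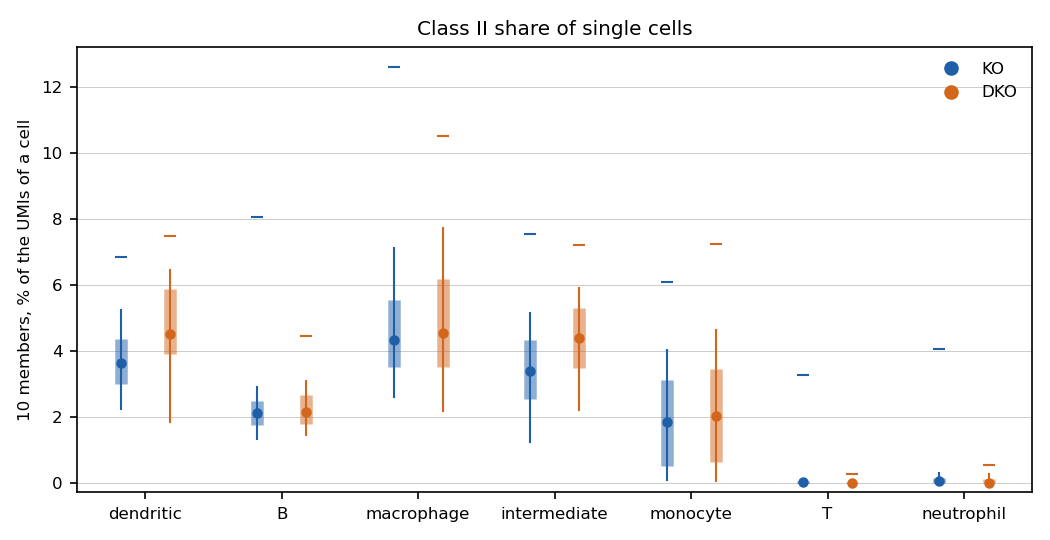
UMIs of the 10 members as a % of all UMIs of a cell, by gated class and library: points are medians over cells, thick bars the 25th to 75th and thin lines the 10th to 90th percentiles, and dashes the highest cell. Monocytes reach from near 0 to the range of macrophages, and T cells and neutrophils lie near 0 but for a few KO cells.

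Class II also differed between subsets set by single genes that are not members. Monocytes with a UMI of Ly6c2, 1 of the gate's markers and a mark of monocytes that have newly left the blood, had 17386 CPM of the members in KO (308 cells) and 20444 CPM in DKO (62 cells), whereas those without had 24568 and 29356 CPM (205 and 43 cells). The median depths of these subsets were alike, between 5058.5 and 5375 UMIs. Among KO macrophages, the 19 cells with at least 2 UMIs of Arg1, the arginase of inflamed and alternatively activated macrophages, had 23759 CPM, against 47629.5 CPM in the other 431. KO intermediate cells with Arg1 had 29554 CPM in 36 cells, against 34844 CPM in 347. Monocytes with Arg1 went the other way, with 23036 CPM in 66 cells and 19718 CPM in the rest. No DKO macrophage, intermediate cell or monocyte had 2 Arg1 UMIs. Mrc1, the mannose receptor of resident macrophages, is also 1 of the gate's markers. Macrophages with and without it were close, at 48849.8 and 45171 CPM in KO, with intervals apart. In DKO they had 49132 and 49774 CPM, with intervals that overlapped. B cells with at least 10 UMIs of Jchain, which marks antibody-secreting cells, were 5 in KO and 1 in DKO and had 3318 and 4939 CPM, against 21463 and 21032 CPM in the other B cells.

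Macrophages had more RNA of the class II members than monocytes, and no such difference was seen for class I. The sum of the members was 2.3-fold higher in macrophages than in monocytes in KO, a log2 gain of 1.2 (1.18 to 1.21), and 2.05-fold higher in DKO, a gain of 1.04 (1.01 to 1.06). All 10 members lay above 0 in KO, and 5 of them were at least 2-fold higher, where 11.1% of 9783 genes were and 6.76% were 2-fold lower. Their median gain was 0.96, beside 0.028 over all genes. In DKO, 9 members (all but H2-Ob) had at least 10 UMIs over both classes, and 5 of those were at least 2-fold higher (background 14.1%), with a median gain of 1.0 beside 0.065 over all genes. These 5 include H2-DMb2, which without 1 cell was under 2-fold and left 4 of 9, and H2-Oa, which rests on few UMIs; both are given next.

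Among the abundant members, the chains and Cd74 had larger gains than H2-DMa and H2-DMb1. In KO the log2 gain was 1.45 (1.42 to 1.49) for H2-Eb1, 1.2 (1.17 to 1.24) for H2-Ab1 and 1.1 (1.07 to 1.14) for H2-Aa. In DKO these were 1.2 (1.14 to 1.27), 1.0 (0.93 to 1.07) and 0.94 (0.87 to 1.01). Cd74 gained 1.16 (1.14 to 1.18) in KO and 1.06 (1.02 to 1.11) in DKO. H2-Eb1 thus gained more than H2-Aa in each library, and its share of member UMIs went from 18.9% in monocytes to 22.6% in macrophages in KO and from 19.7% to 22.1% in DKO. H2-DMa gained 0.57 (0.45 to 0.68) in KO and 0.14 (-0.085 to 0.36) in DKO, and H2-DMb1 0.46 (0.34 to 0.57) and 0.30 (0.077 to 0.52). H2-DMb2 gained 1.3 (0.73 to 1.93) in KO, from 34 to 91 UMIs, and 1.61 (0.68 to 2.76) in DKO, from 11 to 44 UMIs. Of these 44 UMIs, 19 came from 1 cell, and without it the DKO gain was 0.87 (-0.17 to 2.08), an alternative chosen after the data were seen. Ciita gained 0.70 (0.33 to 1.09) in KO, and in DKO its interval included 0, at 0.57 (-0.23 to 1.44). H2-Oa was at 0.52 (-0.20 to 1.28) and H2-Ob at 0.83 (-0.068 to 1.82) in KO. In DKO the gain of H2-Oa was 1.73 (-0.25 to 5.21), from 2 to 10 UMIs. Intermediate cells lay between, with the sum at 0.76 (0.74 to 0.78) over monocytes in KO and 0.79 (0.76 to 0.83) in DKO, and with 0 of 10 members past 2-fold in KO (background 6.25% higher and 2.91% lower) and 2 of 8 in DKO (background 9.63% and 5.19%). Macrophages over intermediate cells had the sum at 0.44 (0.43 to 0.45) in KO and 0.24 (0.22 to 0.27) in DKO, with 0 of 10 members past 2-fold in either (background 5% higher and 3.69% lower in KO, 9.11% and 6.23% in DKO).

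The gain in DKO minus that in KO was -0.16 (-0.20 to -0.13) for the sum on the log2 scale, with an approximate 95% interval from the counts. It was below 0, with its interval, for H2-Aa, H2-Ab1, H2-Eb1, H2-DMa and Cd74, from -0.43 (-0.67 to -0.18) for H2-DMa to -0.10 (-0.15 to -0.047) for Cd74. The difference depended on the gate. Among cells whose expression cluster had the same class as their gate, the gain was 1.48 in KO and 1.49 in DKO.

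Class II was higher step by step with the number of macrophage markers a cell showed. Monocytes, intermediate cells and macrophages were thinned to 2000 UMIs each and ordered by how many of 10 macrophage markers they showed, which left out 61 KO and 17 DKO cells of lower depth. In KO the members went from 18743 CPM in cells with no macrophage marker to 34921 CPM at 3 markers, 45096 CPM at 5 and 53594 CPM at 7 or more. In DKO they went from 21970 CPM to 32364, 47625 and 63257 CPM at the same steps, and each step held at least 22 cells. Some neighbouring steps overlapped in their counting intervals. These were 2 and 3, 4 and 5, and 5 and 6 markers in DKO, and 6 and 7 or more in KO. These markers also set the gates. The mean number of monocyte markers went over the same steps from 3.31 to 0.464 per cell in KO and from 3.46 to 0.429 in DKO. The 12 class I presentation genes, by contrast, had 9297 CPM at the first and 9739 CPM at the last step in KO, and 8430 and 9614 CPM in DKO.

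**Figure D4:**
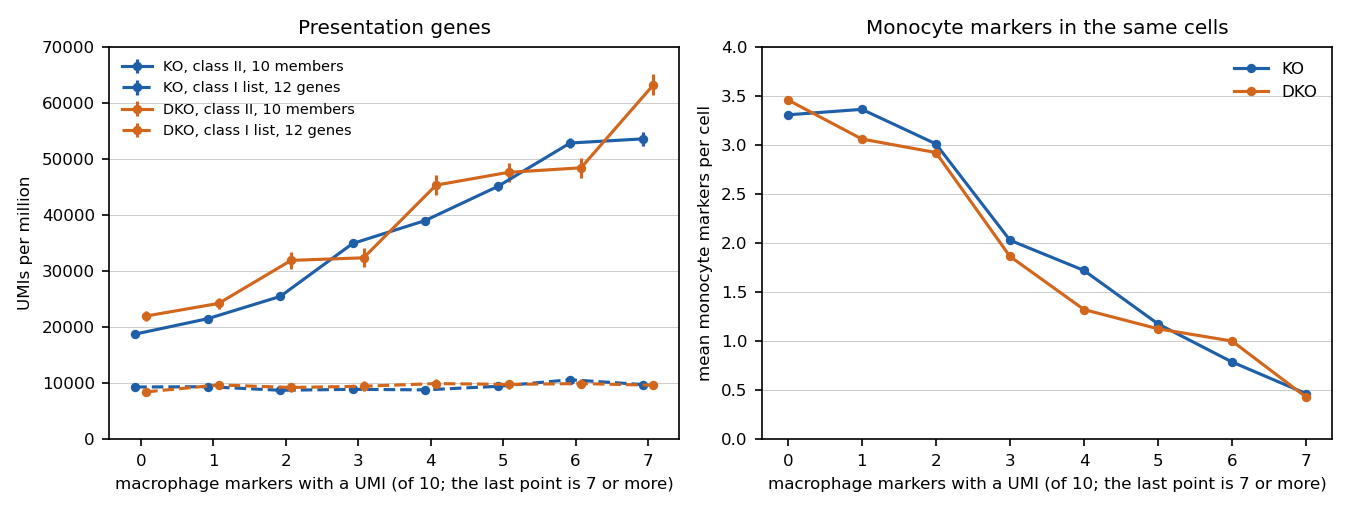
Left, CPM of the 10 class II members (solid) and of 12 class I presentation genes (dashed) against the number of macrophage markers seen per cell at 2000 UMIs, with 95% Poisson intervals; right, mean number of monocyte markers in the same cells. The class II level is higher at each further step in both libraries, though the intervals of some neighbouring steps overlap. Class I stays between 8430.0 and 10594 CPM, and monocyte markers decline overall.

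Among the partners of class II, several processing enzymes were also higher in macrophages than in monocytes. Of the antigen processing list, 2 of 8 genes were at least 2-fold higher in KO and 4 of 8 in DKO, where 11.1% and 14.1% of all genes were, with none 2-fold lower and median gains of 0.82 and 0.86. Lgmn, the asparagine-cutting endopeptidase legumain, gained 1.44 (1.32 to 1.56) in KO and 1.13 (0.93 to 1.33) in DKO. Cathepsin B (Ctsb) gained 1.07 (0.99 to 1.16) and 1.28 (1.12 to 1.45), and cathepsin D (Ctsd) 0.94 (0.79 to 1.1) and 1.16 (0.88 to 1.46). Of the 11 transcription genes, 1 was at least 2-fold higher in KO (Rfxank, an RFX subunit, with 11 UMIs in monocytes and 25 in macrophages) and 1 of 10 with enough UMIs in DKO (Nfya, an NF-Y subunit, with 8 and 30). These counts lie beside the same background of 11.1% and 14.1%. Rfx5, another RFX subunit, stood at -0.78 (-1.92 to 0.27) in KO and Nfyb, an NF-Y subunit, at -0.76 (-1.5 to -0.072). The medians of the list were -0.40 in KO and 0.12 in DKO. None of the 12 class I presentation genes passed 2-fold in either library, with medians of -0.094 and -0.16, and the largest move in KO was that of Tap1, the peptide transporter, at -0.72 (-0.89 to -0.55).

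Dendritic and B cells had far less RNA of these enzymes than macrophages. Against macrophages, 7 of 8 processing genes were at least 2-fold lower in KO dendritic cells and 7 of 8 in DKO dendritic cells (background 23% and 28.5%), with medians of -2.24 and -3.0. The exception in both was Ctsh, cathepsin H, at -0.92 (-1.19 to -0.66) and -0.41 (-0.71 to -0.11), chosen for naming after its values were seen. Ctsd differed by -4.68 (-5.99 to -3.79) in KO and -5.27 (-7.03 to -4.17) in DKO, Ctsb by -3.57 (-3.96 to -3.22) and -4.18 (-4.73 to -3.73), and Lgmn by -2.74 (-3.12 to -2.4) and -3.41 (-3.93 to -2.97). In B cells 7 genes were at least 2-fold lower in KO and 6 in DKO (background 24.4% and 24.5%), with Ctsb at -4.66 (-5.2 to -4.21) and -4.88 (-5.52 to -4.36) and Psap, the precursor of the saposins, at -4.34 (-4.69 to -4.03) and -4.43 (-4.9 to -4.03). The further class II locus H2-Eb2 had 24 and 19 UMIs in B cells and 6 and 16 in dendritic cells, against 3 in KO macrophages and 0 in DKO macrophages, where a count of 0 allows up to 4.25 CPM.

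T cells and neutrophils gave the background. The members summed to 1359 CPM (interval 1299–1419.8) in KO T cells and 166 CPM (interval 130.2–209) in DKO T cells, which is 2.92% and 0.336% of the macrophage level. Neutrophils of KO had 5222 CPM (interval 4979–5474) and those of DKO 625 CPM (interval 459–831), or 11.2% and 1.26% of the macrophage level. Thinned to 1000 UMIs, a Cd74 UMI was seen in 11.5% of KO and 6.36% of DKO T cells (28.4% and 18.2% unthinned), against 85.8% and 84.6% of monocytes (95.5% and 93.3% unthinned). Per cell, the median depth of T cells was 3914 (KO) and 3464 UMIs (DKO), and that of monocytes 5067 and 5375. Neutrophils were the shallowest gated class, at 1639 and 1568 UMIs, and the same number of stray UMIs per cell gives a higher CPM in them. Every presenting class thus lay above this background for the chains and Cd74. The narrowest margin by fold was in KO, where H2-Ab1 had 3063 CPM in B cells and 1095 CPM in neutrophils. H2-Oa and H2-Ob in macrophages, intermediate cells and monocytes overlapped neutrophils in both libraries, on at most 3 neutrophil UMIs. Against KO T cells (2.06 CPM, 0.424 to 6.01), H2-Oa lay apart in each of these classes of KO. H2-Ob overlapped T cells there, and both genes did in DKO.

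Of the 6 members with at least 10 UMIs over both libraries, 5 were at least 2-fold lower in DKO than in KO T cells, where 12.5% of genes were and 5.35% were higher. In neutrophils it was 6 of 6, where 21.5% of genes were lower and 7.41% higher. Much of the higher background of KO lay in a few cells. Cells with more than 1% of their UMIs from the members were 7 of 296 KO T cells and 8 of 165 KO neutrophils, and they held 73.3% and 86.3% of all member UMIs of those classes. DKO had no such T cell or neutrophil. The KO cells also carried other myeloid RNA, with a median of 6 of the 10 shared monocyte/macrophage markers in these T cells and 5.5 in these neutrophils, against 0 and 2 in the rest of each class. Without them the level was 382 CPM (349.7 to 415) in KO T cells and 853 CPM (748 to 969) in KO neutrophils, so that the DKO over KO difference went from -3.02 (-3.39 to -2.7) to -1.19 (-1.57 to -0.84) in T cells and from -3.05 (-3.51 to -2.65) to -0.44 (-0.93 to 0.0072) in neutrophils. The limit was set on the members' own share and took cells from KO alone, so the difference could only shrink. The limit of 1% was chosen after the data were seen, and the part of shared droplets in these cells was not tested. H2-DMa did not scale with the chains, Cd74 and H2-DMb1 in T cells, at 34.3 CPM (KO) and 27.3 CPM (DKO) (50 and 12 UMIs). That was 5.67% and 4.85% of the macrophage level, against 2.69% and 0.0834% for H2-Eb1. H2-DMb2, H2-Oa and H2-Ob were not lower in DKO than in KO T cells, on 1 to 5 UMIs per library. H2-DMa made up 16.4% of member UMIs in DKO T cells and 1.14% in DKO macrophages. Because H2-DMa overlaps Brd2 on the other strand, its reads in T cells are uncertain, as given above.

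Between the genotypes, the class II sum differed by far less than 2-fold within each presenting class. The sum of the members in DKO over KO differed by 0.088 (0.071 to 0.11) on the log2 scale in macrophages, 0.28 (0.26 to 0.31) in intermediate cells, 0.25 (0.22 to 0.28) in monocytes, 0.29 (0.26 to 0.32) in dendritic cells and 0.11 (0.075 to 0.15) in B cells. Over all genes with at least 10 UMIs the median was 0.12 in macrophages and 0.11 in B cells, so the sums of these classes lay at or just below the median gene. TMM scaling, which sets the bulk of genes to 0, moved all values by -0.14 in macrophages, -0.14 in B cells and -0.11 in intermediate cells, less elsewhere, and turned the sums of macrophages and B cells below 0, to -0.048 and -0.030.

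No member passed 2-fold in macrophages, where 7.78% of genes were at least 2-fold higher and 5.3% lower in DKO. Cd74 was 0.23 (0.20 to 0.25) and H2-Ab1 -0.12 (-0.17 to -0.084) on the log2 scale, in opposite directions. H2-Aa was 0.020 (-0.025 to 0.065), H2-Eb1 0.056 (0.019 to 0.092) and Ciita -0.10 (-0.66 to 0.41). The members' median was 0.038, beside 0.12 over all genes. With TMM scaling H2-Aa and H2-Eb1 lay below 0, at -0.12 and -0.081. The largest difference was that of H2-DMb2, at 0.95 (0.39 to 1.48), and it rested on 1 cell: 19 of the 44 DKO UMIs came from a cell of 30158 UMIs with 3 dendritic cell and 4 macrophage markers. Without it the difference was 0.21 (-0.51 to 0.84).

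In monocytes the members' median was 0.25, beside 0.026 over all genes. H2-Eb1 was 0.31 (0.24 to 0.37), Cd74 0.32 (0.28 to 0.37) and H2-DMb1 0.38 (0.18 to 0.57) higher on the log2 scale. H2-Aa was 0.18 (0.11 to 0.25) and H2-Ab1 0.079 (0.014 to 0.14). Past 2-fold lower were H2-Oa and H2-Ob, on 2 and 1 DKO UMIs, where 7.91% of all genes were and 5.21% were 2-fold higher. Their intervals included 0, at -1.24 (-4.65 to 0.46) for H2-Oa and -1.24 (-7.17 to 0.91) for H2-Ob. Where gate and cluster agreed, the sum was 0.077, with H2-Aa at -0.039, H2-Ab1 at -0.21 and H2-Eb1 at -0.036. Intermediate cells had 1 member past 2-fold, H2-DMb2 at 1.36 (0.60 to 2.05) on 25 DKO and 56 KO UMIs (background 7.49% higher and 7.23% lower).

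In dendritic cells the difference of the sum moved with Lyz2, the lysozyme of monocytes and macrophages. Cd74 differed by 0.46 (0.41 to 0.50), H2-Aa by 0.26 (0.18 to 0.33), H2-Ab1 by 0.17 (0.10 to 0.24) and H2-Eb1 by 0.15 (0.091 to 0.21), and the members' median was 0.13, beside -0.023 over all genes. Lyz2 stood at 1121 CPM in dendritic cells of KO and at 6757 CPM in those of DKO, and the 10 shared monocyte/macrophage markers summed to 1710.3 and 7396 CPM, while the 10 macrophage markers summed to 210.3 and 189 CPM with 3 of them at 0 in each library. Dendritic cells with a Lyz2 UMI had 38042 CPM of the members in KO (32 cells) and 51328 CPM in DKO (20 cells). Those without had 35308 and 34077 CPM (24 and 14 cells), a difference of -0.051 (-0.11 to 0.0048). This split was chosen after the data were seen, and the part of Lyz2-positive cells in the difference was not tested. In both libraries the dendritic cells with Cd209a had the highest level of the named subsets (42756 CPM in 11 KO and 53524 CPM in 9 DKO cells), above those with Xcr1 or Clec9a (39472 CPM in 18 and 32449 CPM in 5 cells) and those with Ccr7 and Fscn1 (31129.7 CPM in 10 and 32269 CPM in 5 cells).

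Ciita was the only member past 2-fold in dendritic cells and in B cells. It went from 22 UMIs in KO to 5 in DKO dendritic cells, a log2 difference of -1.5 (-3.36 to -0.17), where 9.37% of genes were 2-fold lower and 7.58% higher. It went from 27 to 6 UMIs in B cells, a difference of -1.56 (-3.22 to -0.35), where 5.52% of genes were 2-fold lower and 6.62% higher. These few UMIs came from 17 KO and 5 DKO dendritic cells and from 22 KO and 6 DKO B cells. In macrophages, intermediate cells and monocytes, which had more Ciita UMIs, the interval of the difference included 0. The chains of DKO B cells did not move by a like amount, with H2-Aa at 0.13 (0.035 to 0.23), H2-Eb1 at 0.081 (-0.0068 to 0.17) and Cd74 at 0.15 (0.091 to 0.21). With TMM scaling they were -0.011, -0.062 and 0.0060, so that H2-Aa and H2-Eb1 turned below 0 and Cd74 stayed just above. The members' median in B cells was 0.087, beside 0.11 over all genes. Without the 5 KO and 1 DKO cells rich in Jchain, the B cell sum was -0.029 (-0.067 to 0.0087).

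**Figure D5:**
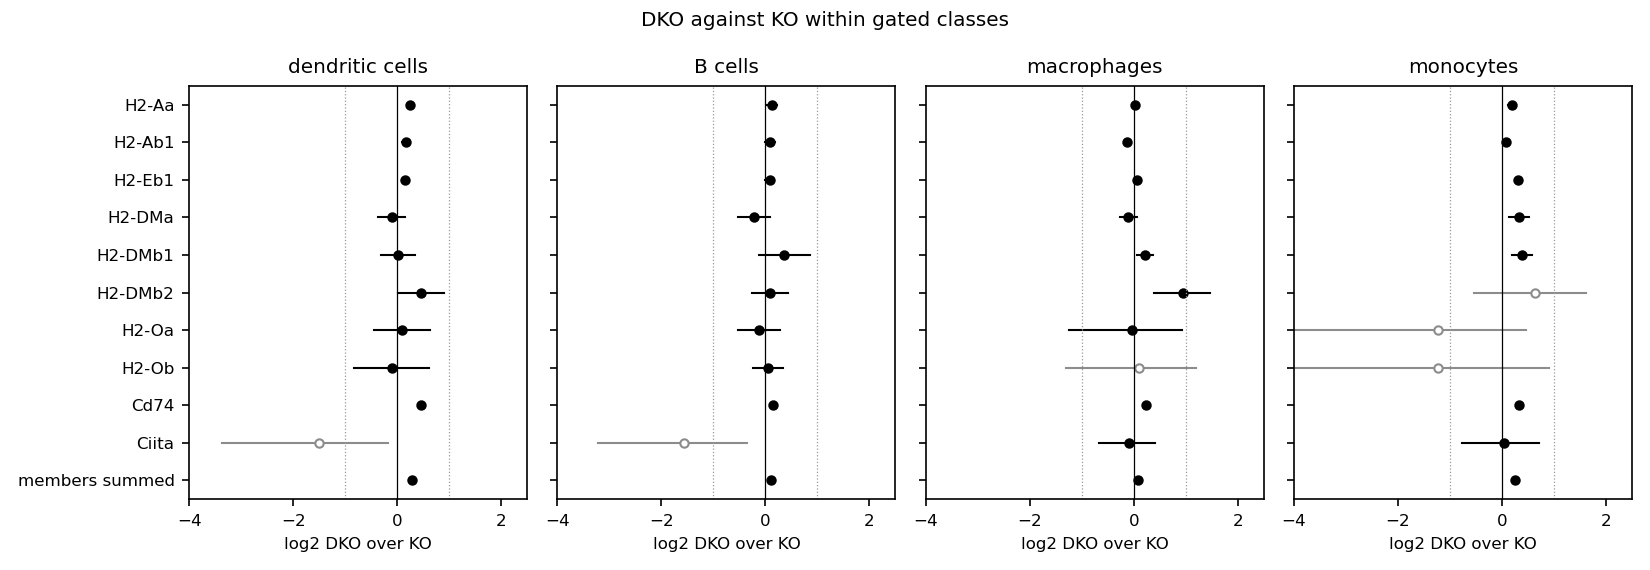
Log2 difference of DKO over KO for each member and for their sum within dendritic cells, B cells, macrophages and monocytes, with exact conditional 95% intervals; dotted lines mark 2-fold, open grey points rest on fewer than 50 UMIs over both libraries, and the intervals of H2-Oa and H2-Ob in monocytes run past the left edge. The chains, Cd74 and the sum sit well inside the 2-fold lines in every class, and Ciita lies below them in dendritic and B cells.

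The genes whose levels ran most like the members over the 14 class and library sums, by Pearson's r of log2(CPM + 10) with the mean of the members, were Cd86 (r = 0.975), Syngr2 (0.970), Cd83 (0.958), Ly86 (0.937), Filip1l (0.928), Erlin1 (0.925), Rasgef1b (0.924) and Gm6377 (0.918), among 6006 genes with at least 200 UMIs. The 14 sums share 2 libraries, so r is a description. Cd86, a costimulatory ligand for CD28, had 312 CPM (KO) and 394 CPM (DKO) in macrophages, 294 and 465 CPM in dendritic cells, and 13.7 CPM in KO T cells with no UMI in DKO T cells. Of the members themselves, H2-Aa had r = 0.979, and the least alike were H2-Oa (0.525) and H2-Ob (0.518).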

How the data were processed

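Colon cells of chimeric mice were profiled with the 10x Genomics Chromium 3′ v3.1 kit in 1 library per genotype. The deposited matrices hold whole-number UMI counts of each gene in each barcode. Per the submitters' processing notes, the authors used Cell Ranger 6.0.1 with mm10, and Seurat 4.3.0. The use of strand in counting is not given in the sources used here. As in the study's methods, a cell needed 300 to 5000 genes and a mitochondrial share of no more than 10%. Depth was 12549471 UMIs in KO and 3414944 in DKO.

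Cells were gated on 10 markers per class, with a minimum of 3 and more than for any other class. Raw counts were summed per library and class and given as CPM (counts per 1000000 UMIs) with exact Poisson intervals. Ratios had 0.5 counts added to each sum and exact conditional (Clopper-Pearson) intervals, and shares had exact binomial ones. All are 95% intervals for counting error only. Genes needed at least 10 UMIs over both sums of a ratio to count as 2-fold higher or lower, which is a fold and not a test. Shares of cells with a UMI were compared after thinning to 1000 UMIs per cell, and the steps by macrophage markers after thinning to 2000. Where a sum was 0, its limit is 3 counts.

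The genes named are the 10 members, the 3 with the largest difference in each list of partners (11 transcription, 8 measured processing and 12 class I genes, and H2-Eb2), and the 8 whose log2(CPM + 10) had the highest Pearson's r with the members' mean. Ifi30 and H2-Ea-ps are not analysed here. Members and lists were chosen with earlier results of these data known. Scrublet, in scanpy 1.11.5, called 9 KO and 0 DKO cells, too few to take as working, so doublets were not removed and taking out the 5% of cells with the highest scores was an alternative. Clusters for another alternative came from Seurat 5.3.0 without the members (2000 variable genes, 30 components, 20 neighbours, resolution 0.3). TMM factors came from edgeR 4.0.16. Python 3.11.15, numpy 2.4.6, scipy 1.17.1 and pandas 2.3.3 were used, and the ratio and its interval were tested on simulated counts. Promoter windows were RefSeq's on GRCm38.p6 and gene positions those of GENCODE on GRCm38.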

Additional observations from a re-analysis of the deposited data

Results flagged for a closer look

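The sum of the class II members in DKO over KO was below 0 in the background classes and, as first given, above 0 in the presenting classes. It kept that sign under all alternatives in monocytes but not in macrophages, dendritic cells and B cells. For intermediate cells no alternative but the TMM shift was run. The sum was -3.02 on the log2 scale in T cells and -3.05 in neutrophils, and 0.088 in macrophages, 0.25 in monocytes, 0.29 in dendritic cells and 0.11 in B cells. With 1 library per genotype this difference was not tested. It moved with 7 KO T cells and 8 KO neutrophils that had more than 1% of their UMIs from the members, as given above.

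Class II was also high in cells that met no gate and entered no comparison, at 23583 CPM (interval 23318–23851) in 353 KO cells and 34072 CPM (interval 33348–34809) in 87 DKO cells, both above the T cell level of the same library. The median cell of these had 2208 UMIs in KO and 2455 in DKO.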

How the results depend on the processing

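The macrophage gain of the sum kept its direction under all alternatives, between 1.16 and 1.48 in KO and between 0.96 and 1.49 in DKO on the log2 scale. DKO over KO in monocytes stayed above 0, and in B cells, dendritic cells and macrophages it did not, so no direction is claimed there. Beyond the TMM shift, DKO over KO in intermediate cells was not put through the alternatives. The lower Ciita of DKO ranged from -2.56 to -1.49 in dendritic cells and from -2.21 to -1.46 in B cells. With at least 4 markers per gate, the macrophage gain in KO was 1.28, the macrophage gain in DKO was 1.23, DKO over KO in dendritic cells was 0.25, DKO over KO in B cells was 0.010, DKO over KO in macrophages was 0.12, members past 2-fold in macrophages numbered 1, DKO over KO in monocytes was 0.18, members past 2-fold in monocytes numbered 1, H2-Ab1 in B cells -0.035 and H2-Ab1 in monocytes -0.055. With a lead of at least 2 markers, the macrophage gain in KO was 1.28, the macrophage gain in DKO was 1.19, DKO over KO in monocytes was 0.18, members past 2-fold in monocytes numbered 1 and H2-Ab1 in monocytes -0.028. Without the 5% of cells with the highest Scrublet score, the macrophage gain in KO was 1.22, the macrophage gain in DKO was 1.08, DKO over KO in B cells was 0.0049, DKO over KO in monocytes was 0.22 and H2-Ab1 in B cells -0.014. Where gate and cluster agreed, the macrophage gain in KO was 1.48, the macrophage gain in DKO was 1.49, DKO over KO in B cells was 0.21, DKO over KO in monocytes was 0.077, members past 2-fold in monocytes numbered 1, H2-Aa in monocytes -0.039, H2-Ab1 in monocytes -0.21 and H2-Eb1 in monocytes -0.036. With each cell weighted the same, the macrophage gain in KO was 1.24, the macrophage gain in DKO was 1.13, DKO over KO in B cells was 0.064, DKO over KO in macrophages was 0.062, DKO over KO in monocytes was 0.17 and H2-DMb2 in macrophages -0.063. With the members left out of the total, the macrophage gain in KO was 1.24 and the macrophage gain in DKO was 1.07. With TMM scaling, the macrophage gain in KO was 1.16, the macrophage gain in DKO was 0.96, DKO over KO in B cells was -0.030, DKO over KO in macrophages was -0.048, DKO over KO in monocytes was 0.19, H2-Aa in B cells -0.011, H2-Ab1 in B cells -0.048 and H2-Eb1 in macrophages -0.081. Without cells with at least 2 Arg1 UMIs, the macrophage gain in KO was 1.27, DKO over KO in macrophages was 0.053, DKO over KO in monocytes was 0.29 and members past 2-fold in monocytes numbered 0. Without cells with at least 10 Jchain UMIs (added after seeing the data), DKO over KO in B cells was -0.029. Without cells with a Lyz2 UMI (also added), DKO over KO in dendritic cells was -0.051. TMM shifts all values of a comparison alike, and the cause of the other moves was not tested. Leaving out a library was not possible with 1 per genotype. Counted without the minimum of 10 UMIs, members past 2-fold in dendritic and B cells and in the macrophage gain stayed within 1.5 times of the first count. TMM scaling moved the macrophage gain in DKO by -0.071 and put H2-Ab1 (1.0 before) and Cd74 (1.06 before) under 2-fold. Of the members given as past 2-fold for that gain, H2-Eb1, H2-DMb2 and H2-Oa stayed so. Depth limits H2-Oa, H2-Ob and Ciita, which had few UMIs in several classes. No paired analysis was possible because each genotype had 1 library and the result comes from no test.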
